A study of Mus musculus with 13 samples.

Results

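The transcripts of 9 genes of mitochondrial fusion and fission were followed in the gastrocnemius muscle of mice treated with semaglutide, a GLP-1 receptor agonist used for weight loss, with or without a ketone ester. The genes were taken by name from the 21868 genes of the deposited table of normalized counts, namely Mfn1, Mfn2, Opa1, Oma1, Dnm1l, Fis1, Mff, Mtfp1 and Pink1, and all 9 were measured in all 13 mice. All mice were male C57BL/6 mice (C57BL/6N by the study's figure legends), 7 weeks old at the start, that spent 1 week acclimatizing and 15 to 17 weeks on a diet with 60% of its kcal from fat, and then returned to chow. For the 3 weeks that followed, 5 vehicle-treated mice (mice 1 to 5) received phosphate-buffered saline and a placebo, and 5 semaglutide-treated mice (mice 13 to 17) received 30 nM/kg of semaglutide per day by intraperitoneal injection and a placebo. The 3 semaglutide + ketone ester-treated mice (mice 19, 21 and 22) received the same semaglutide dose and drank water that held the ketone ester at 0.114 g/mL. No group received the ketone ester without semaglutide, and no group of lean mice was part of this comparison.

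Mitochondria of muscle fibres form a network that is remodelled by fusion and by division. Mitofusins (Mfn1, Mfn2) join the outer membranes of neighbouring mitochondria and Opa1 joins the inner membranes, while the protease Oma1 cleaves Opa1 when the inner membrane is stressed. Division is carried out by the dynamin-related GTPase Drp1, the product of Dnm1l, which is recruited to the outer membrane by receptors such as Mff and Fis1. Mtfp1 is an inner-membrane protein linked to division, and Pink1 is a kinase that marks damaged mitochondria for removal by mitophagy.

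Relative to vehicle, 6 of the 9 genes had fewer transcripts under semaglutide and none had more. The 6 were Mfn1, Mfn2 and Opa1 of fusion, the Opa1 protease Oma1, and Dnm1l and Mtfp1 of fission, and the largest of the differences was that of Mtfp1, at 0.524 times the vehicle level. Fis1, Mff and Pink1 did not pass the test. In semaglutide + ketone ester-treated mice, Mfn1, Mfn2, Opa1, Oma1 and Mtfp1 were higher than in mice given semaglutide alone, and none of the 9 genes differed from vehicle by the test used. Differences were tested by limma on log2(normalized count + 1) over the 12303 genes with a mean normalized count of at least 10, with Benjamini-Hochberg adjustment over these genes and a threshold of 0.05. By this test 13.9% of all genes tested were lower and 12.5% were higher under semaglutide than under vehicle. The counts of 6 and 0 of 9 genes stand beside these shares. The 9 genes and the lists of related genes given below were chosen with earlier results of these data known, so no enrichment is drawn from such counts. Of all genes, 10.0% were higher and 10.7% lower in semaglutide + ketone ester-treated than in semaglutide-treated mice, and 0.366% were called between semaglutide + ketone ester and vehicle in either direction. The last share was 45 genes and depended on the fit. Fitted on only these 2 groups, 106 genes were higher and 162 lower. DESeq2 called 68 higher and 104 lower, edgeR 17 and 28, and limma with weights per mouse 120 and 198.

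**Figure D1:**
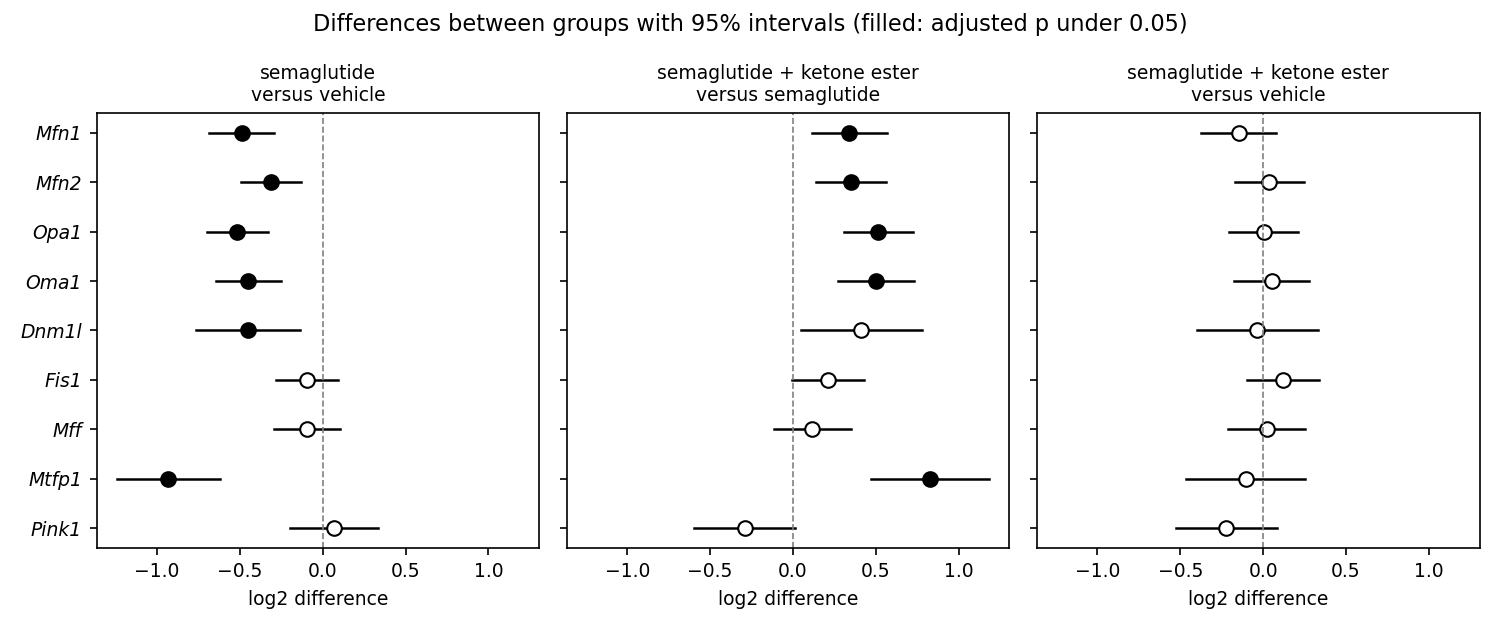
Log2 differences in normalized count (x axis) of the 9 genes (y axis) for the 3 pairs of groups, with points for the limma estimates, bars for their 95% confidence intervals and filled points for an adjusted p under 0.05. The first panel holds 6 filled points left of 0, the second 5 right of 0 and the third none.

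Between 15319471 and 23498162 reads were counted on genes per mouse. Markers of skeletal muscle fibres (Ckm, Acta1, Mylpf, Tnnt3 and 4 myosin heavy chain genes) were present in every library. Their summed normalized count ranged from 2377490 to 2858270 in vehicle-treated, from 1459080 to 2604320 in semaglutide-treated and from 3003790 to 3602520 in semaglutide + ketone ester-treated mice, in the same order as several of the genes described here; none of the 8 was called between semaglutide and vehicle and 3 were higher with the ketone ester. Of the markers of other cell types, 3 of 4 tendon genes (Tnmd, Scx, Kera, Fmod) and 3 of 4 fibroblast genes were lower under semaglutide than under vehicle, with sums of 308 to 1677 against 569.9 to 4614 for tendon and 4489.8 to 6032 against 4924 to 11241 for fibroblasts. With the ketone ester 3 tendon and 2 fibroblast genes were higher than under semaglutide alone and 1 tendon gene was lower, 2 of 3 endothelial genes (Pecam1, Cdh5, Kdr) were higher, with sums of 3002.9 to 3551 against 2739 to 3184, and all 5 red blood cell genes were higher, with sums of 2849 to 5558 against 50.5 to 3148 under semaglutide and 1356 to 2291 under vehicle. Among the semaglutide-treated mice, mouse 16 stood apart by its adipocyte markers (Adipoq, Plin1, Cidec, Fabp4, Lep), which summed to 14503 against 3132 to 6562 in vehicle-treated mice, and mouse 13 by a score of -9.12 on the first principal component of all genes tested, where mice 14 to 17 scored from 31.8 to 52.5 and all vehicle-treated mice below -12.8. The part of these markers in the differences between groups was not tested, and in bulk muscle RNA fewer fibres and less RNA per fibre cannot be told apart.

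The promoters of Opa1, Oma1 and Mtfp1, which were called in both comparisons with semaglutide by every limma, edgeR and DESeq2 fit tried, are printed here with that of Pink1, so that genes that moved together can be set beside one that was not called. Each sequence is the 250 bases before the RefSeq transcription start, 5′ to 3′ on the gene's strand, from GRCm38.p6, and capitals mark a match to any of 5 motifs searched on both strands. The windows lie at chr11:4095432-4095681 (minus strand) for Mtfp1, chr16:29579084-29579333 (plus strand) for Opa1, chr4:103313596-103313845 (plus strand) for Oma1 and chr4:138326297-138326546 (minus strand) for Pink1.
Mtfp1: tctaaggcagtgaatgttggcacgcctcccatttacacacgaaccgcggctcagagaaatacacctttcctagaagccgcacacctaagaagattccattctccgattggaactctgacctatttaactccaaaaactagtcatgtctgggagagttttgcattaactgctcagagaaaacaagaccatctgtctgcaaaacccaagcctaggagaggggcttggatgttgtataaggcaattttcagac
Opa1: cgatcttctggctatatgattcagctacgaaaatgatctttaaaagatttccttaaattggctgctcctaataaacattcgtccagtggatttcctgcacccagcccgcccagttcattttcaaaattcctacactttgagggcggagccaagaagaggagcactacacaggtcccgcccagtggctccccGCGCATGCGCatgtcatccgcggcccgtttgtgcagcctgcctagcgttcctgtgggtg
Oma1: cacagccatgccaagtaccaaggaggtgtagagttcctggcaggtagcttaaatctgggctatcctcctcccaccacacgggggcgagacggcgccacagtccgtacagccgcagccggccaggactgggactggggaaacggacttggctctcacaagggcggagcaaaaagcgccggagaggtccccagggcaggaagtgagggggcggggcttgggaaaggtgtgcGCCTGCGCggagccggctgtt
Pink1: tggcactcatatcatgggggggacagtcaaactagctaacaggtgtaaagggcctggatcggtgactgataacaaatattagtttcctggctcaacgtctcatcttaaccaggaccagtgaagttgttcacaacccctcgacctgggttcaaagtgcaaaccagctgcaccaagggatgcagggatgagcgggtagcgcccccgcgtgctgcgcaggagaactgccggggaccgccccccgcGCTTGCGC
The motifs were GCGCANGC for NRF1, AAGGTCA for the estrogen-related receptors, CCGGAAG for GABPA, CACGTG for the E-box and AANATGGC for YY1, all factors with known roles at nuclear genes for mitochondrial proteins or, for the E-box, a broadly used element. The capitals in Opa1, Oma1 and Pink1 are NRF1 matches, in Opa1 on both strands with an overlap (GCGCATGCGC) and in Oma1 (GCCTGCGC) and Pink1 (GCTTGCGC) on the opposite strand, and Mtfp1 held no match to any of the 5. Over the 14 promoter windows of the 9 genes, an NRF1 match was present for 4 genes (also in 1 of 3 windows of Mfn2), a GABPA match for 2 (Mfn1 and Fis1) and a YY1 match for 2 (Mfn1 and Mff), while AAGGTCA and CACGTG were found in none. The same letters were found in 8.3% (NRF1), 4.08% (estrogen-related receptors), 6.91% (GABPA), 6.02% (E-box) and 3.91% (YY1) of all 32851 promoter windows of this length. These shares are per window, whereas a gene was counted with a match in any of its windows, some of which overlap. The counts and the shares are therefore in unlike units. The NRF1 letters thus occurred both in genes that differed between groups and in Pink1, which was not called.

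Levels were compared between genes per kb of annotated exon, since longer transcripts collect more reads. In vehicle-treated mice Pink1 was the most abundant of the 9, with a normalized count per kb of 5831 ± 438 (SD, n = 5), and Mfn2 followed at 2643 ± 27.4. Fis1 came next at 1084 ± 22.2, and Mff at 810.4 ± 43.2 and Mfn1 at 765 ± 76 did not differ beyond their spread. Mtfp1 stood at 489 ± 34.3, Opa1 at 379.9 ± 19.4, Dnm1l at 311 ± 20 and Oma1, the lowest, at 224 ± 16.8. The order was the same in semaglutide + ketone ester-treated mice. Under semaglutide it changed at 1 place, where Opa1 (267 ± 30.7) lay above Mtfp1 (262 ± 65), a gap smaller than their SDs, as was that between Mtfp1 and Dnm1l (234 ± 68.7).

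**Figure D2:**
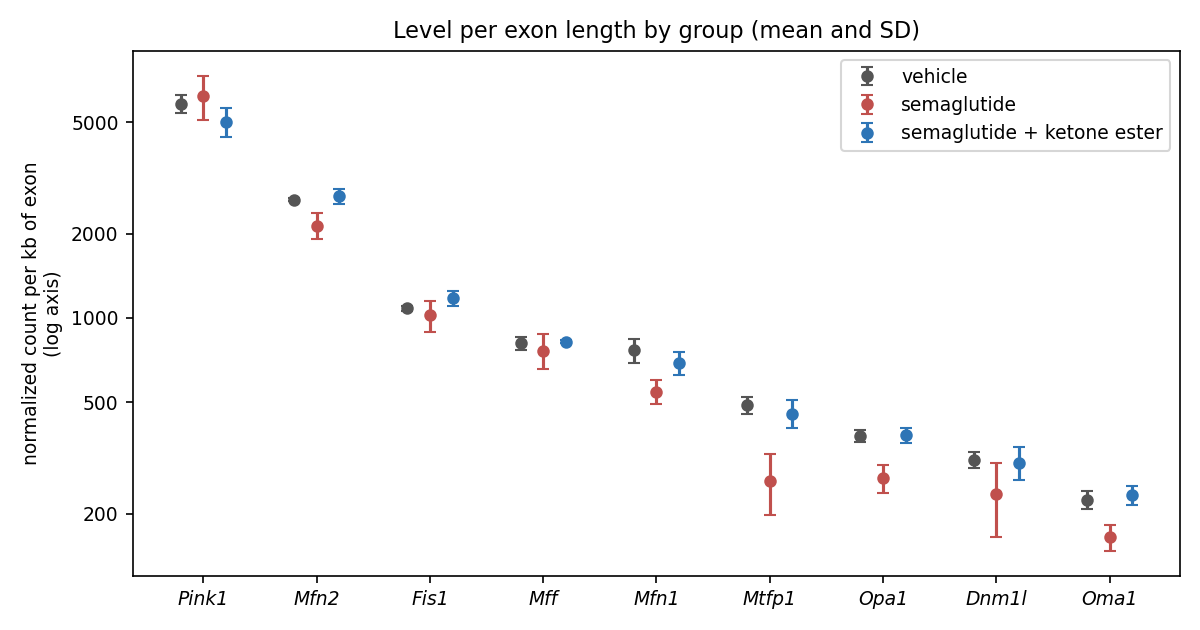
Normalized count per kb of exon (y axis, log scale) for the 9 genes (x axis, in the order of the vehicle means), with points for the group means of 5 vehicle, 5 semaglutide and 3 semaglutide + ketone ester mice and bars for the SD. Pink1 and Mfn2 lay highest and Oma1 lowest in all 3 groups.

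Mfn1 (chr3:32529465-32579239, plus strand, GRCm38, as are the positions that follow) encodes the mitofusin that tethers outer membranes for fusion. Its normalized counts were 3920.4, 3603, 3215, 4213 and 3819 in vehicle-treated mice 1 to 5, 2575, 2946, 2930.3, 2346 and 2581 in semaglutide-treated mice 13 to 17, and 3318, 3115 and 3718 in semaglutide + ketone ester-treated mice 19, 21 and 22. Every semaglutide-treated mouse lay below every mouse of the other groups, and the ketone ester group overlapped with vehicle. The group means were 3754 ± 373 (SD, n = 5), 2676 ± 258 (SD, n = 5) and 3384 ± 307 (SD, n = 3). Semaglutide differed from vehicle by -0.49 on the log2 scale (SE 0.092, adjusted p = 0.0019), and semaglutide + ketone ester from semaglutide by 0.34 on the log2 scale (SE 0.11, adjusted p = 0.035). The second of these calls was lost when any 1 of mice 16, 17, 19, 21 or 22 was left out, with adjusted p of up to 0.16 and a difference of 0.27 to 0.40.

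Mfn2 (chr4:147873599-147904704, minus strand), the mitofusin that also links mitochondria to the endoplasmic reticulum, had the highest level per kb of the fusion genes. Vehicle-treated mice had normalized counts of 13384, 13374, 13418, 13229 and 13617, semaglutide-treated mice of 12181, 11524, 10720.5, 9056 and 10733, and semaglutide + ketone ester-treated mice of 13121, 13492 and 14719. The vehicle values were tightly grouped, with a coefficient of variation of 1.04%, and the semaglutide values were all lower than those of both other groups, mouse 16 the lowest. Means were 13404 ± 139 (SD, n = 5), 10843 ± 1169.7 (SD, n = 5) and 13777 ± 836 (SD, n = 3). The difference was -0.31 on the log2 scale (SE 0.085, adjusted p = 0.015) for semaglutide against vehicle and 0.35 on the log2 scale (SE 0.10, adjusted p = 0.023) for the ketone ester group against semaglutide. Leaving out mouse 16 gave -0.25 (adjusted p = 0.019) for the first, and leaving out mouse 21 or 22 ended the second call, with 0.36 (adjusted p = 0.067) and 0.30 (adjusted p = 0.11).

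Opa1 (chr16:29579334-29654884, plus strand) encodes the dynamin-like GTPase that fuses inner membranes and keeps cristae narrow. Counts were 2342, 2227, 2378, 2561 and 2426 under vehicle, 1914, 1665, 1745, 1379.9 and 1691 under semaglutide, and 2221, 2442 and 2512 under semaglutide + ketone ester. The semaglutide-treated mice were separate from both other groups, which overlapped with each other. Mean Opa1 counts were 2387 ± 122 (SD, n = 5) in vehicle, 1679 ± 193 (SD, n = 5) in semaglutide and 2392 ± 152 (SD, n = 3) in semaglutide + ketone ester. The semaglutide level fell by 0.51 on the log2 scale (SE 0.085, adjusted p = 0.00083) relative to vehicle, and the ketone ester group was higher than semaglutide by 0.52 on the log2 scale (SE 0.10, adjusted p = 0.0029). Without mice 13 and 16, a choice made after the data were seen, the differences were -0.49 (adjusted p = 0.0001) and 0.49 (adjusted p = 0.00026).

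Oma1 (chr4:103313812-103371868, plus strand), the stress-activated protease that inactivates Opa1 in fusion, had the lowest level per kb of the 9 genes. Its counts were 422, 413, 483, 398 and 433 with vehicle, 348, 323, 307, 262 and 336 with semaglutide, and 407, 453 and 477 with semaglutide + ketone ester. Again all semaglutide values lay below all others. The difference was -0.45 on the log2 scale (SE 0.092, adjusted p = 0.0032) between semaglutide and vehicle and 0.50 on the log2 scale (SE 0.11, adjusted p = 0.0053) between the ketone ester group and semaglutide. Group means were 429.8 ± 32.2 (SD, n = 5), 315 ± 33.5 (SD, n = 5) and 446 ± 35.7 (SD, n = 3). Transcripts of Opa1 and of the protease that cleaves it were thus lower in the same mice. Without mouse 16 the Oma1 differences were -0.38 (adjusted p = 0.0055) and 0.44 (adjusted p = 0.0071).

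**Figure D3:**
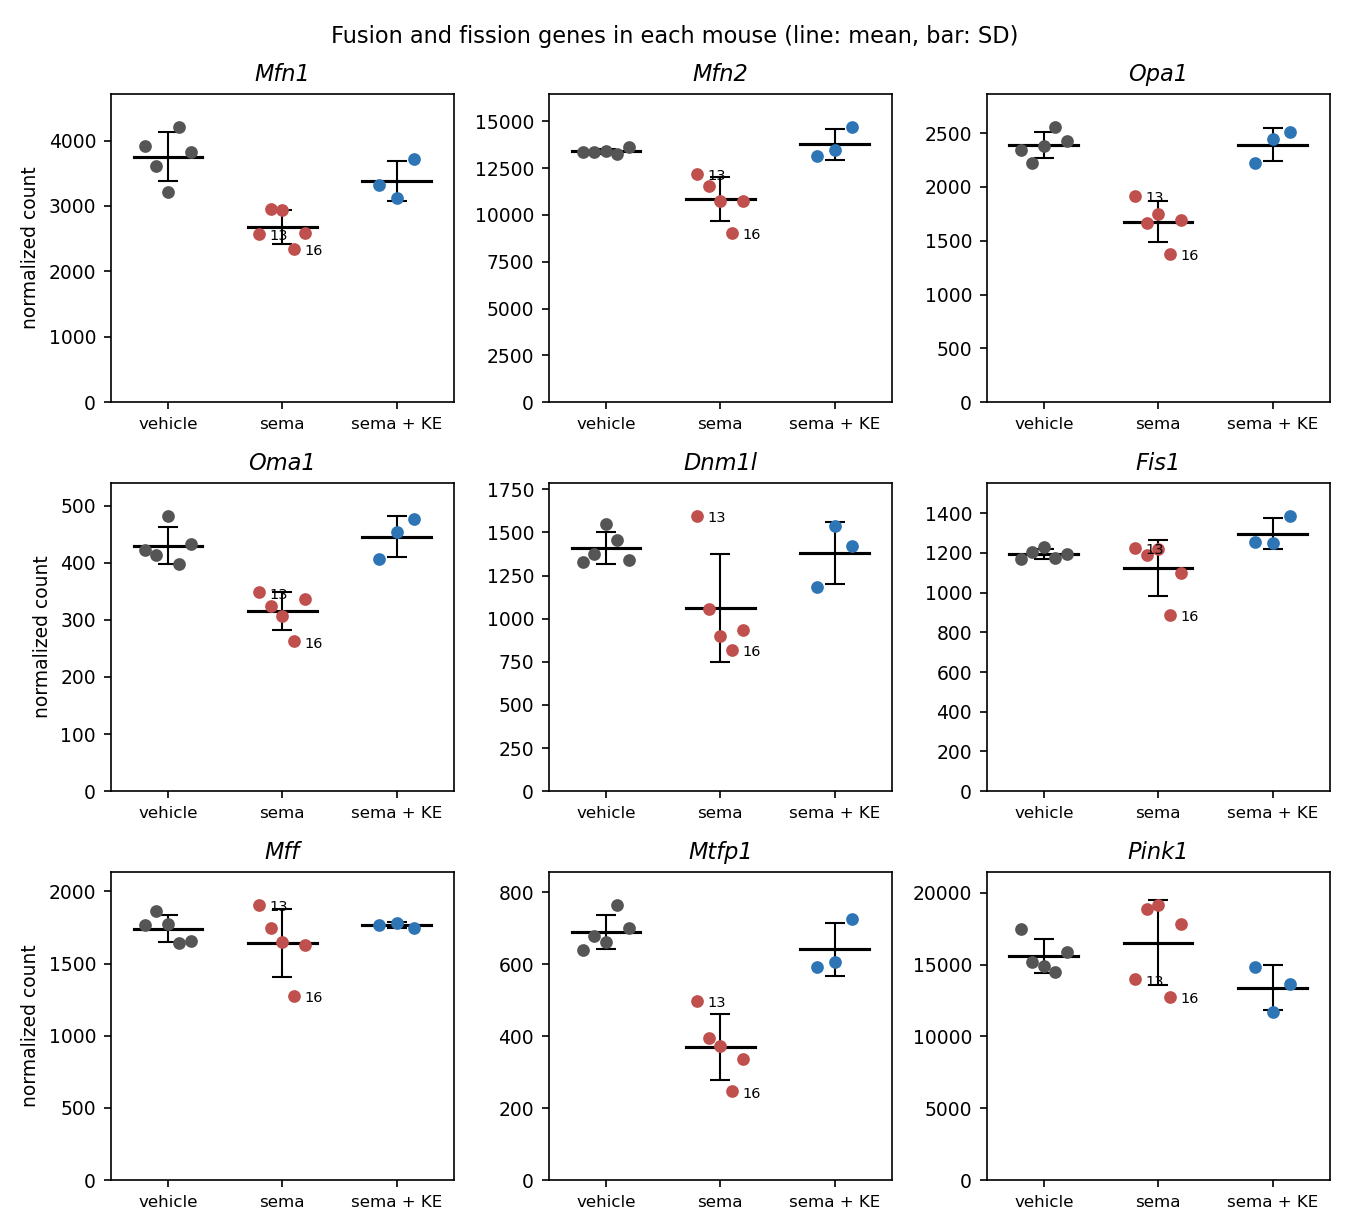
Normalized counts (y axis, from 0) of the 9 genes in each mouse (points) of the vehicle, semaglutide (sema) and semaglutide + ketone ester (sema + KE) groups, with lines for group means and bars for the SD, and semaglutide-treated mice 13 and 16 numbered. The semaglutide points of Mfn1, Mfn2, Opa1, Oma1 and Mtfp1 lie below all others, while those of Fis1, Mff and Pink1 overlap with vehicle.

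Among fission genes, Mtfp1 (chr11:4091480-4095445, minus strand), an inner-membrane protein whose loss is known to leave mitochondria elongated in cultured cells, had the largest difference. Vehicle-treated mice had counts of 639.7, 678, 663, 766 and 702, semaglutide-treated mice of 499, 394, 372, 247 and 336, and semaglutide + ketone ester-treated mice of 593, 608 and 727. No semaglutide value reached the lowest of the other groups, and the values ran from mouse 16 at the bottom to mouse 13 at the top. Means were 689.8 ± 48.3 (SD, n = 5) for vehicle, 369.6 ± 91.7 (SD, n = 5) for semaglutide and 642 ± 73.6 (SD, n = 3) for semaglutide + ketone ester. By limma the difference from vehicle was -0.93 on the log2 scale (SE 0.15, adjusted p = 0.00057), with a 95% confidence interval of -1.24 to -0.62, and the difference between the ketone ester group and semaglutide was 0.83 on the log2 scale (SE 0.17, adjusted p = 0.0041). Without mouse 16 the values were -0.80 (adjusted p = 0.00044) and 0.69 (adjusted p = 0.0031). Mtfp1 was also the only one of the 9 genes to meet the criterion in the study's methods, a one-way analysis across the 3 groups with an unadjusted p under 0.05 and group means at least 1.5-fold apart, which 16.1% of all genes met. The highest and lowest group means of the other 8 genes differed by 1.08-fold (Mff) to 1.42-fold (Opa1).

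Dnm1l (chr16:16312230-16358959, minus strand), the gene of the GTPase that constricts mitochondria, varied most among semaglutide-treated mice. Normalized counts were 1329, 1376, 1547, 1454 and 1342 in vehicle-treated mice, 1598, 1054, 902, 819 and 933 in semaglutide-treated mice, and 1182, 1539 and 1420.5 in semaglutide + ketone ester-treated mice. Mouse 13 was above every vehicle-treated mouse, and the other 4 semaglutide-treated mice were below every mouse of both other groups. The mean was 1061 ± 312 (SD, n = 5) under semaglutide against 1409 ± 90.8 (SD, n = 5) under vehicle and 1380.4 ± 182 (SD, n = 3) with the ketone ester. The difference from vehicle was -0.45 on the log2 scale (SE 0.15, adjusted p = 0.036), a call that was lost in 9 of 13 fits that each left out 1 mouse (adjusted p up to 0.088) and in edgeR's quasi-likelihood test (-0.40, adjusted p = 0.062). Without mouse 13, picked after its value was seen, it was -0.61 (adjusted p = 0.00015). Against semaglutide the ketone ester group differed by 0.41 on the log2 scale (SE 0.17, adjusted p = 0.099), or by 0.57 (adjusted p = 0.00085) without mouse 13. Exons of Dnm1l share 243 bases (5.36% of its exon length) with Gm49521 on the opposite strand, and whether strand was used in counting is not given in the sources used here.

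Neither Fis1 nor Mff, the receptors for Drp1 among the 9 genes, passed in any comparison by limma on the deposited normalized counts. Another receptor for Drp1, Mief2, is given with the related genes below. Fis1 (chr5:136953275-136966234, plus strand) had counts of 1169, 1206, 1229, 1173 and 1195 in vehicle-treated, 1226, 1191, 1221, 888 and 1101 in semaglutide-treated and 1256, 1248 and 1388 in semaglutide + ketone ester-treated mice. Apart from mouse 16, and mouse 17 slightly, the semaglutide-treated mice lay within the vehicle range, and all 3 ketone ester mice were above all others. The differences were -0.10 (adjusted p = 0.45) for semaglutide against vehicle, 0.21 (adjusted p = 0.15) for the ketone ester group against semaglutide and 0.12 (adjusted p = 0.78) for the ketone ester group against vehicle. After quantile normalization the second of these passed, at 0.29 (adjusted p = 0.037). Mff (chr1:82724890-82752394, plus strand), the other main receptor, had counts of 1766, 1866, 1774, 1639.9 and 1658 under vehicle, 1909, 1745, 1652, 1274 and 1629.8 under semaglutide and 1767, 1784 and 1744 with the ketone ester. The 3 groups overlapped, mouse 13 the highest and mouse 16 the lowest of all. Its differences were -0.10 (adjusted p = 0.49) for semaglutide against vehicle and 0.12 (adjusted p = 0.48) for the ketone ester group against semaglutide, and the 95% confidence interval of the first was -0.30 to 0.11. Exons of Mff share 195 bases (9.08%) with C430014B12Rik on the opposite strand.

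Pink1 (chr4:138313409-138326307, minus strand) was not called in any of the 3 comparisons. Its counts were 17485, 15204, 14918, 14478 and 15845 under vehicle, 13979, 18868, 19179, 12763 and 17833 under semaglutide and 14849, 11713 and 13624 under semaglutide + ketone ester. Mice 14, 15 and 17 were above every vehicle-treated mouse, whereas mice 13 and 16 were below every vehicle-treated mouse. The semaglutide mean was 16524 ± 2953 (SD, n = 5), against 15586 ± 1172 (SD, n = 5) under vehicle and 13396 ± 1580.4 (SD, n = 3) with the ketone ester. The differences were 0.068 (adjusted p = 0.72) for semaglutide against vehicle, -0.29 (adjusted p = 0.16) for the ketone ester group against semaglutide, and -0.22 (adjusted p = 0.66) for the ketone ester group against vehicle. Without mice 13 and 16, a choice made after the data were seen, the first 2 became 0.26 (adjusted p = 0.034) and -0.48 (adjusted p = 0.0022), and the second also passed without mouse 16 alone, at -0.38 (adjusted p = 0.046). Exons of Pink1 share 69 bases (2.58%) with Mir7019 and 110 bases (4.12%) with Gm27646, both on the same strand.

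Counted by mice, 5 of the 9 genes (Mfn1, Mfn2, Opa1, Oma1 and Mtfp1) had every semaglutide-treated mouse below every vehicle-treated mouse, as did 7.45% of all genes tested. In 6 genes, the same 5 and Fis1, every semaglutide + ketone ester-treated mouse was above every semaglutide-treated mouse, as in 9.96% of all genes. These 2 counts share the semaglutide-treated mice. Within that group, mouse 16 had the lowest count for all 9 genes, and mouse 13 the highest count for 7 (Mfn2, Opa1, Oma1, Dnm1l, Fis1, Mff and Mtfp1). The total normalized count of mouse 16 was 14876576, below the other semaglutide-treated mice, whose totals reached 18100930, and vehicle-treated mice, whose totals ranged from 18962089 to 19866025. Without mouse 16, 5 of the 9 genes were lower and none higher under semaglutide than under vehicle, and 4 were higher and 1 lower with the ketone ester than under semaglutide. Without mice 13 and 16 the numbers were 6 lower and 1 higher, and 5 higher and 1 lower, the single gene in the other direction being Pink1. The share of all genes called was not counted in these fits, so nothing particular to the 9 genes is read from the numbers. When every library was scaled to 1 common total, the median difference of all genes moved to 0.17 for semaglutide against vehicle and to -0.24 for the ketone ester group against semaglutide. On that scale Mfn1, Opa1, Oma1 and Mtfp1 were still lower under semaglutide and Opa1, Oma1 and Mtfp1 still higher with the ketone ester, while Mfn2 (-0.14, adjusted p = 0.10) and Dnm1l (-0.28, adjusted p = 0.12) no longer passed for semaglutide, nor did Mfn1 (0.10, adjusted p = 0.44) and Mfn2 (0.11, adjusted p = 0.24) for the ketone ester. Pink1 then passed as lower with the ketone ester than under semaglutide (-0.53, adjusted p = 0.0052).

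**Figure D4:**
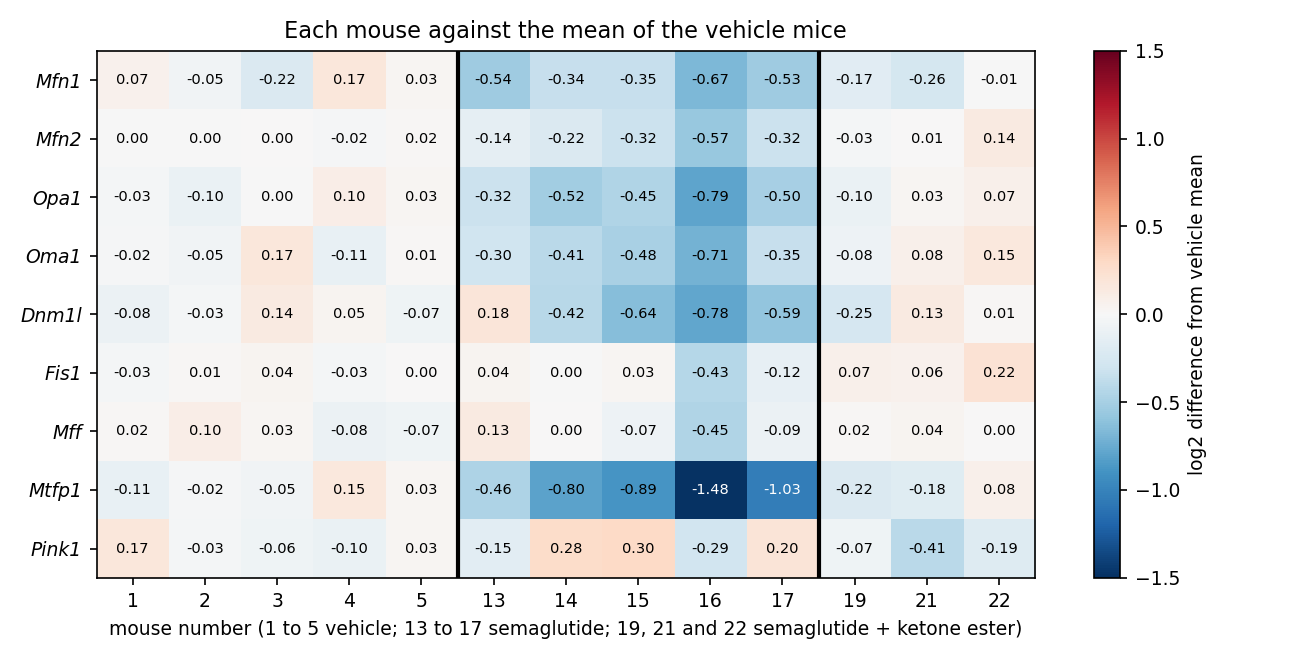
Log2 difference of each mouse (columns) from the mean log2 value of the 5 vehicle-treated mice for each gene (rows), printed in each cell and coloured from blue (lower) to red (higher), with black lines between the groups. The column of mouse 16 is the lowest of the semaglutide-treated mice in every row, and mouse 13 is above 0 for Dnm1l, Fis1 and Mff.

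By limma 0 of 9 genes were called between the ketone ester group and vehicle, with 0 of 9 at an unadjusted p under 0.05 and 0 called by edgeR and by DESeq2. The intervals leave room for differences of moderate size, from -0.21 to 0.21 for Opa1, which had nearly equal means, to -0.46 to 0.25 for Mtfp1 and -0.40 to 0.33 for Dnm1l, all on the log2 scale at 95% confidence. With 3 mice in the group, a miss of the threshold does not show that the levels were the same. For Fis1 every ketone ester mouse was above every vehicle-treated mouse, with means of 1297 ± 78.7 (SD, n = 3) and 1194 ± 24.5 (SD, n = 5). By limma this difference was not called (0.12, adjusted p = 0.78). The share of all genes separated in this way was not counted, so the separation is not read as particular to Fis1. The lowest unadjusted p was that of Pink1, whose means lay farther apart than either SD, at 0.14, whose ketone ester values included the lowest Pink1 count of all mice, 11713 in mouse 21.

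Across the 13 mice the log2 values of Mfn2, Opa1, Oma1 and Mtfp1 ran together, with Pearson correlations of 0.96 (Mfn2 and Opa1), 0.97 (Mfn2 and Mtfp1) and 0.98 (Opa1 and Mtfp1), which contain the difference between groups. With the group means removed these were 0.84, 0.93 and 0.91, and they include mouse 16. Oma1 then stood at 0.80 with Mfn2, 0.70 with Opa1 and 0.64 with Mtfp1. The uncalled genes ran with them too, Fis1 at 0.91 with Mfn2 and 0.87 with Mtfp1, and Mff at 0.86 and 0.78. The close correlations were thus not particular to the called genes. Mfn1 went less with the rest within groups, at 0.45 with Opa1 and -0.012 with Oma1. Dnm1l stood within groups at 0.75 with Mfn2, 0.73 with Opa1 and 0.78 with Mtfp1, but at -0.054 with Mfn1. Pink1 correlated with Opa1 at -0.27 over all mice and at 0.16 within groups. Its values within groups ran from -0.33 with Dnm1l to 0.52 with Fis1 and 0.59 with Mfn1. The genes most like a member over the 13 mice were named for the 4 with the largest difference between semaglutide and vehicle. For Mtfp1 they were Sod2, the mitochondrial superoxide dismutase, Opa1 and Zswim9, all with r = 0.98. For Opa1 they were Uqcc1 (r = 0.99), an assembly factor of respiratory complex III, Fh1 (r = 0.98), fumarate hydratase of the citric acid cycle, and Mtfp1 (r = 0.98). Mfn1 was most like Lonp1 (r = 0.96), a matrix protease, Tmem65 (r = 0.95) and Coq10a (r = 0.95), and Dnm1l was most like Tmem246, Pdzd7 and Mrs2, a mitochondrial magnesium channel, each with r = 0.98. All 13 points of each correlation share the 3 groups and the scaling of each library.

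A wider set of 57 genes that act with the 9 was then read, of which 54 could be tested. Between semaglutide and vehicle 16 of the 54 were lower and 3 higher, against 13.9% lower and 12.5% higher over all genes tested, with a median difference of -0.027 against -0.0029 over all genes tested, whereas the median over the 9 fusion and fission genes was -0.45. Without mice 13 and 16 they were 17 lower and 11 higher, and the share of all genes called in that fit was not counted. With every library scaled to 1 common total, 10 were lower and 19 higher, against 985 lower and 3351 higher of 12319 genes tested. Among 12 other genes of the fission machinery, 4 were lower and none higher. Gdap1, an outer-membrane protein mutated in Charcot-Marie-Tooth disease, fell from 613 ± 134 (SD, n = 5) to 106 ± 112 (SD, n = 5), a log2 difference of -3.001 (adjusted p = 0.00046), and stood at 339.6 ± 54.5 (SD, n = 3) with the ketone ester, a difference from semaglutide of 2.17 (adjusted p = 0.011). Its counts were 620.2, 683, 726, 653 and 384 in vehicle-treated, 303, 85.6, 57.8, 26.2 and 55.2 in semaglutide-treated and 340.1, 394 and 285 in ketone ester mice. Mouse 13 lay well above the other 4 semaglutide-treated mice, whose mean was 56.2 ± 24.3 (SD, n = 4), and without it the differences were -3.51 (adjusted p = 7.1e-07) and 2.68 (adjusted p = 2.2e-05). Mouse 13 was picked after these values were seen, so the smaller adjusted p is not further support. Mtfr1 was lower by a log2 difference of -0.50 (adjusted p = 0.0016) and Mtfr1l, its paralog, by -0.38 (adjusted p = 0.013). The remaining gene called was Mief2, another receptor for Drp1, at -0.37 (adjusted p = 0.025). Mief2 was higher with the ketone ester than under semaglutide, at 0.46 (adjusted p = 0.023). Of 9 partners of fusion, the prohibitin gene Phb2 (0.57, adjusted p = 0.00074) and Stoml2 (0.34, adjusted p = 0.029), which form inner-membrane scaffolds around Opa1-processing proteases, rose, and the protease subunit gene Afg3l1 (-0.27, adjusted p = 0.009) fell. The other prohibitin gene, Phb, differed from vehicle by -0.30 (adjusted p = 0.051) and was higher with the ketone ester than under semaglutide, at 0.52 (adjusted p = 0.01), with no overlap between the mice of these groups, the opposite direction to that of Phb2.

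Of 10 genes of cristae organization, 4 were lower and none higher under semaglutide. They were Chchd10 (-0.62, adjusted p = 0.0016), Micos10 (-0.56, adjusted p = 0.0045), Apool (-0.55, adjusted p = 0.0025) and Immt, the core subunit of the complex at cristae junctions. All 4 were higher with the ketone ester than with semaglutide alone, Chchd10 by 0.72 (adjusted p = 0.0023). In the list for the Pink1 pathway and mitophagy, 3 of 16 were lower and 1 higher, close to the shares of all genes tested (13.9% and 12.5%). Bnip3, a mitophagy receptor induced in fasting and hypoxia, rose by 0.89 (adjusted p = 0.0085) and was lower with the ketone ester (-0.99, adjusted p = 0.013). Lower were Fundc1 (-0.56, adjusted p = 0.0016), another mitophagy receptor, and Rhot2 (-0.42, adjusted p = 0.0074) and Rhot1 (-0.19, adjusted p = 0.039), which carry mitochondria along microtubules and are substrates of the Pink1 pathway.

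Of 7 genes used as measures of mitochondrial content, 4 were lower and none higher under semaglutide. Over all genes tested 13.9% were lower and 12.5% higher. Vdac1, the main outer-membrane channel of muscle, went from 20949.8 ± 363 (SD, n = 5) to 13117 ± 1295 (SD, n = 5), a difference of -0.68 (adjusted p = 0.0001). Citrate synthase (Cs) differed by -0.47 (adjusted p = 0.0022), the mitochondrial DNA packaging factor Tfam by -0.27 (adjusted p = 0.023) and Vdac3 by -0.27 (adjusted p = 0.017). Vdac2 did not pass (-0.061, adjusted p = 0.58). Tomm20 (0.044, adjusted p = 0.67) and Hspd1 (0.082, adjusted p = 0.40) did not pass either, with estimates in the opposite direction. The differences of Opa1, Mfn1 and Oma1 were thus of the size of that of Cs, and that of Mtfp1 was larger than that of Vdac1; these differences between genes were not tested. Between the ketone ester group and semaglutide, 15 of the 54 related genes were higher and 5 lower, against 10.0% higher and 10.7% lower over all genes tested. The 20 called became 8 without mouse 21, 7 without mouse 22 and 30 without mouse 13. Scaled to 1 common total, 5 were higher and 23 lower, where 636 of the 12319 genes tested were higher and 3713 lower. Among the 20 were Vdac1 (0.67, adjusted p = 0.00075), Cs (0.64, adjusted p = 0.0013) and Tfam (0.29, adjusted p = 0.04), which were higher, and Phb2 (-0.58, adjusted p = 0.0024), which was lower. With 1 mouse left out, the named calls of Stoml2, Mief2, Immt, Rhot1 and Tfam against vehicle were each lost in at least 1 fit (adjusted p up to 0.090). Of those named for the ketone ester against semaglutide, Mief2, Phb, Micos10, Immt, Bnip3, Tfam and Gdap1 were (adjusted p up to 0.13). Vdac3 (0.26, adjusted p = 0.052) and Vdac2 (0.12, adjusted p = 0.35) did not pass in that comparison. Neither did Tomm20 (-0.32, adjusted p = 0.068) or Hspd1 (-0.18, adjusted p = 0.11), whose estimates were lower with the ketone ester. Between the ketone ester group and vehicle only Optn, an autophagy receptor, was called, at -0.66 (adjusted p = 0.025). The call of Optn was lost without mouse 1, 2, 21 or 22 (adjusted p up to 0.20). Over all genes tested 0.366% were called in that comparison. Mtfr2 and Pld6 had mean counts under 10 and Calcoco2 was listed at 0 in all mice, so that these 3 were not tested.

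**Figure D5:**
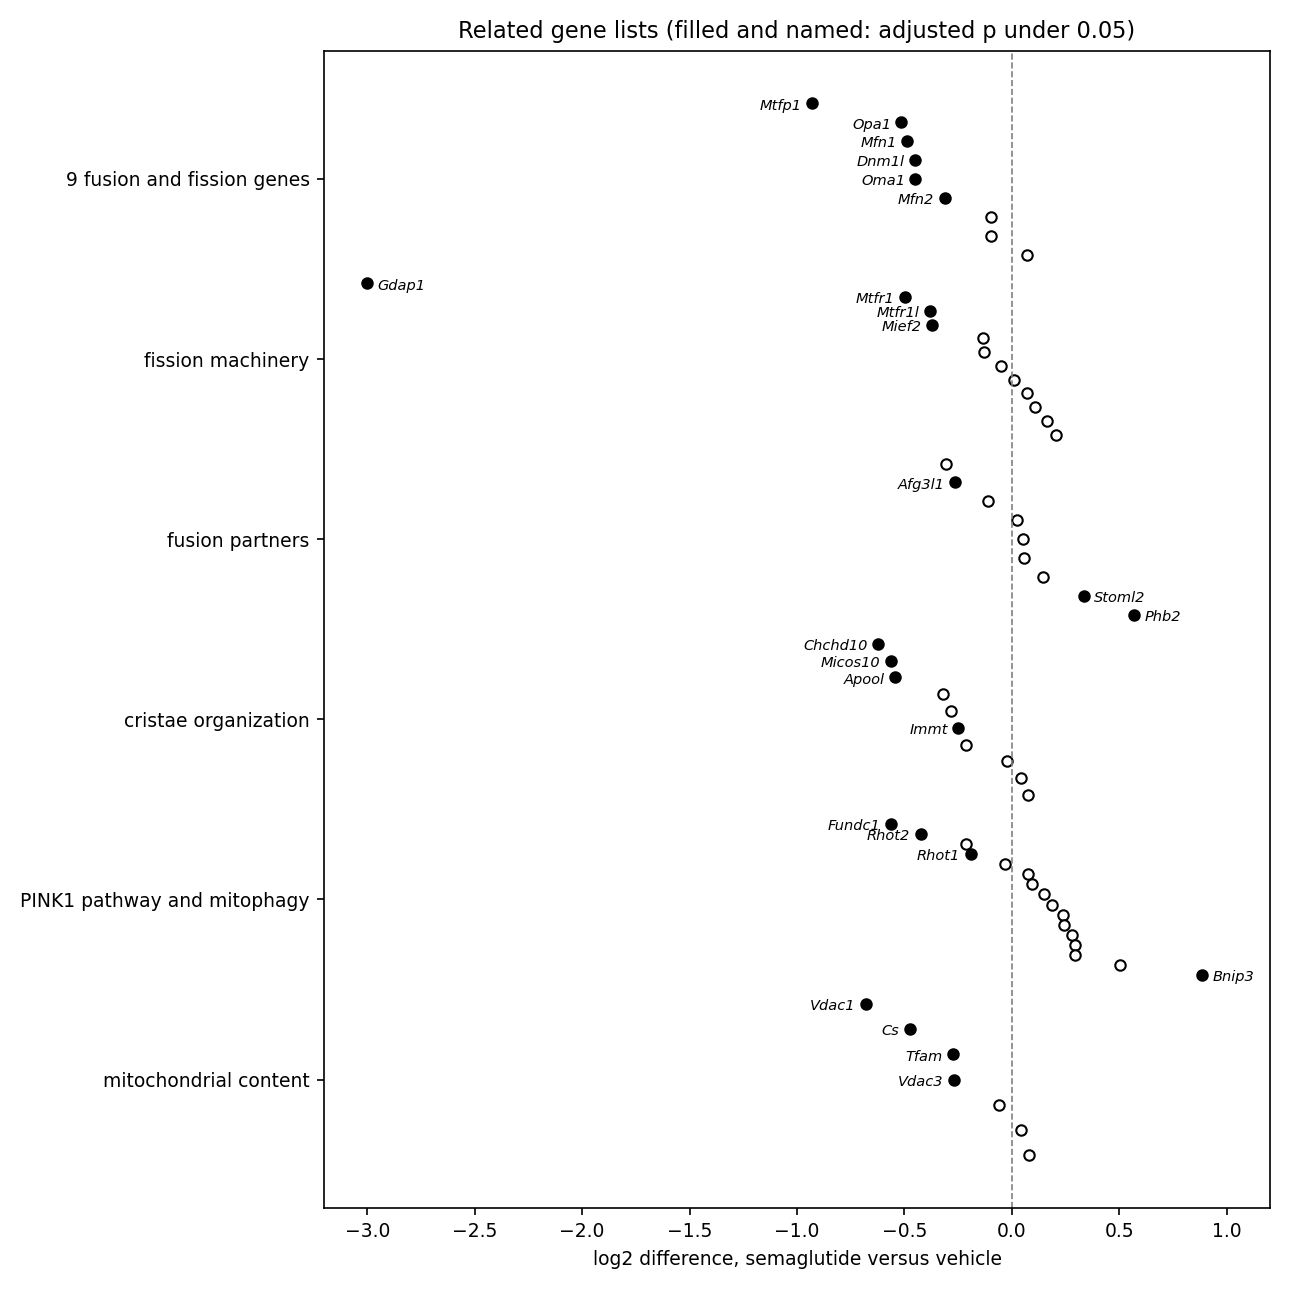
Log2 differences between semaglutide and vehicle (x axis) of the 9 fusion and fission genes and of 5 lists of related genes (y axis, 1 point per gene), with filled and named points for an adjusted p under 0.05. Filled points lie left of 0 for 6 of the 9 genes, and Gdap1, Phb2 and Bnip3 are the farthest from 0 in their lists.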

How the data were processed

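The authors sequenced stranded mRNA libraries of gastrocnemius muscle and deposited normalized counts per gene, a signal in the unit of reads divided by a factor per mouse, with 1 column for each of the 13 mice. The submitters' processing notes name DRAGEN, DESeq2 and mm10; the read counter and gene annotation are not given in the sources used here. Whole reads were recovered for 100% of values (tolerance 0.01 reads). Groups were taken from the treatment labels, and all libraries share 1 batch label.

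Log2(normalized count + 1) of the 12303 genes with a mean of at least 10 was fitted by limma 3.58.1 (R 4.3.3) with a trended prior and all 3 groups, with Benjamini-Hochberg adjustment over these genes; fold changes on this scale understate changes of low genes. Replicates are mice, and limma p-values weigh differences between group means against 1 spread per gene shared by the 3 groups. That spread was unequal for some genes. The coefficient of variation under vehicle and semaglutide was 1.04% and 10.8% for Mfn2, but 9.94% and 9.63% for Mfn1. On recovered reads, edgeR 4.0.16 called 1769 genes higher and 1542 lower for semaglutide against vehicle. For semaglutide + ketone ester it called 1202 and 1355 against semaglutide, and 17 and 28 against vehicle. DESeq2 1.42.0, a further alternative, called 68 and 104 in the last of these comparisons. Scripts were tested on simulated data.

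The 9 genes and the related and marker lists were chosen with earlier results of these data known. Named were all 9 genes, Vdac1, Vdac2 and Vdac3. Also named were up to 3 called genes per related list and direction with the largest difference between semaglutide and vehicle. So were the 3 genes most correlated with each of the 4 called genes of largest difference. Mief2, Phb, Immt, Optn, Tomm20 and Hspd1, and genes repeated from these lists, were named after their values were seen. A related gene was left out of the lists and is not reported here. Positions and exon lengths are from GENCODE vM21 basic (GRCm38), promoters from RefSeq (GRCm38.p6, all 9 genes matched).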

Additional observations from a re-analysis of the deposited data

How the results depend on the processing

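Opa1, Oma1 and Mtfp1 kept their direction and adjusted p under 0.05 in both comparisons with semaglutide in every limma, edgeR and DESeq2 fit and with any 1 mouse left out. The number of fusion and fission genes called between semaglutide and vehicle was 5 to 6 with 1 mouse left out, and 15 to 28 related genes were called; between the ketone ester group and semaglutide these were 3 to 6 (3 without mouse 21 or 22) and 7 to 30 (30 without mouse 13, 8 without mouse 21, 7 without mouse 22), and between the ketone ester group and vehicle 0 and 0 to 1 (0 without mouse 1, 2, 21 or 22). Shares of all genes called were not counted in the fits with mice left out. By one-way analysis with a 1.5-fold minimum 1 of the 9 was altered, as were 16.1% of all genes tested. With weights per mouse (arrayWeights) 31 related genes were called in each of the comparisons with semaglutide, as were 31 for the ketone ester against semaglutide without mice 13 and 16, an alternative chosen after seeing the data. With these weights 2462 of the 12303 genes tested were higher and 2524 lower for semaglutide against vehicle. For the ketone ester against semaglutide 2100 were higher and 2336 lower. Fitted on only the 2 groups compared, 3 of the 9 and 6 related genes were called for the ketone ester against semaglutide, and 2 related genes against vehicle. Of the 12303 genes, 591 were then higher and 617 lower against semaglutide, and 106 higher and 162 lower against vehicle. Limma without a trend called 0 related genes against vehicle, where 9 of all genes were higher and 20 lower. With columns rescaled to equal totals 29 related genes were called between semaglutide and vehicle, Fis1 and Mff changed sign for semaglutide against vehicle (0.0782 and 0.0788) and for the ketone ester against semaglutide (-0.0238 and -0.12), and Mfn2 (-0.0252), Opa1 (-0.0607), Oma1 (-0.0108) and Mff (-0.0416) for the ketone ester against vehicle; all genes then split into 3351 higher and 985 lower, and 636 higher and 3713 lower with the ketone ester against semaglutide. Quantile normalization turned Dnm1l to 0.0252 in the comparison with vehicle, where leaving out 1 mouse gave -0.0106 to 0.0723 for Mfn2, -0.0338 to 0.0547 for Opa1 (below 0 without mouse 1, -0.00406, mouse 2, -0.0222, mouse 21, -0.0137, or mouse 22) and -0.119 to 0.0713 for Dnm1l. For semaglutide against vehicle, Dnm1l also missed the threshold in limma without a trend (0.055) and on only the 2 groups (0.052); for the ketone ester against semaglutide, Mfn1 missed it in both fits (adjusted p = 0.053 and 0.084) and Mfn2 in the second (0.11), while arrayWeights called Dnm1l, at 0.54 (adjusted p = 0.0022), and, like quantile normalization, Pink1, at -0.43 (adjusted p = 0.0098) and -0.36 (adjusted p = 0.034). Quantile normalization also called Fis1 in that comparison, at 0.29 (adjusted p = 0.037). None of the reversed values was called, and their cause was not tested. No paired analysis was possible because the labels give the groups no shared replicate numbers.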
